A study of Mus musculus with 6 samples.

Results

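Of the 23282 genes listed, 9 are described here: the chemoattractant receptors Ccr7, Ccr9 and S1pr1, the transcription factor Klf2, and the integrin chains Itga4, Itgb7, Itgae, Itgb1 and Itgal. They were taken by symbol as receptors that guide lymphocytes to lymphoid organs and the gut, together with their regulator, and they were selected on earlier results of the same comparison, including the low level of Ccr9 in AMPK KO cells. Their levels and differences are therefore a description, with no test. All 9 were above 0 in every sample and all 9 were among the 11279 genes tested.

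RNA was measured in CD4 T cells from spleen and lymph nodes of C57BL/6 mice, with 3 WT samples (Prkaa1fl/fl without CD4Cre) and 3 AMPK KO samples (Prkaa1fl/fl with CD4Cre). Both groups therefore carry the floxed Prkaa1 gene, which encodes the catalytic subunit AMPKα1 of the energy sensor AMPK, and CD4Cre acts in every cell that has passed through a CD4-expressing stage, CD8 T cells included. The mice were 6 to 8 weeks old. The cells were rested for 1 h and stimulated with anti-CD3 and anti-CD28 (2 µg/mL each). The labels give 24 h for this stimulation, whereas the methods text gives 6 h.

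Naive T cells circulate because CCR7 draws them into lymph nodes along CCL19 and CCL21, and because S1PR1 leads them out again towards the sphingosine-1-phosphate of blood and lymph. KLF2 is the transcription factor known for driving S1pr1 in resting T cells. CCR9, the receptor of CCL25, and the integrin α4β7, which binds MAdCAM-1, direct lymphocytes to the small intestine, whereas α4β1 binds VCAM-1, αEβ7 binds E-cadherin of epithelial cells, and αLβ2 (LFA-1) binds ICAM-1. T cell receptor stimulation is known to lower KLF2, CCR7 and S1PR1.

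The promoters of the gut-homing genes Ccr9, Itga4 and Itgb7 are shown because these members had lower means in AMPK KO cells and their products act together at the intestinal vessel wall. RefSeq (GRCm38.p6, the build named mm10) gave a promoter for 5 of the 9 members, and the 250 bases before the RefSeq start are printed on the strand of the gene. For Ccr9 that start lies inside the longer GENCODE span given further on, so the window is not upstream of every annotated start of the gene. Capitals mark CACCC, the core letters of KLF family sites, on either strand (GGGTG on the opposite strand).
Ccr9, chr9:123766961-123767210, plus strand: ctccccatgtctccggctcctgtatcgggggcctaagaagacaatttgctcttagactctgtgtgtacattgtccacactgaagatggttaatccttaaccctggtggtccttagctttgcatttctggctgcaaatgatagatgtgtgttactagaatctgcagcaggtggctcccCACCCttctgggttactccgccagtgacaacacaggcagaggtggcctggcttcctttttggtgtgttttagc
Itga4, chr2:79255176-79255425, plus strand: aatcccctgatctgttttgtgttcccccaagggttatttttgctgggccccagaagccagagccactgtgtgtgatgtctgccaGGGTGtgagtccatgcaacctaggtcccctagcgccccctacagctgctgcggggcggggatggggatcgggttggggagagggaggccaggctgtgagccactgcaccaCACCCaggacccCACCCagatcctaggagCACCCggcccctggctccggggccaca
Itgb7, chr15:102231936-102232185, minus strand: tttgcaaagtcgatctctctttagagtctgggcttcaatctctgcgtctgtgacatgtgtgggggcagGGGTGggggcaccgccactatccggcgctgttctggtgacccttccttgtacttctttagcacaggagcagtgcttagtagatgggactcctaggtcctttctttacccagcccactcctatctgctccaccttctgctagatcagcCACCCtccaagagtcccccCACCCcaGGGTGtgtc
CACCC occurs 1 time in this window of Ccr9, 4 times in Itga4 and 4 times in Itgb7, and it also occurs in those of Klf2 (1 time) and Itgb1 (2 times). It is a common sequence, present in 52.0% of the 32851 promoter windows of this length, so its presence in 5 of 5 does not set these genes apart. GTAAACA, the core of FOXO family sites, was in none of the 5 windows and in 3.17% of all, and AGGTCA, the core of sites of nuclear receptors such as the retinoic acid receptor, was in none of the 5 and in 14.0% of all. A match is a run of letters and not a measured site.

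The libraries held 9575096 to 10168121 reads on genes in WT and 10515155 to 11185360 in AMPK KO, as recovered from the rounded log2 values. Levels are given as CPM, the TMM-normalised count relative to library size, or as the deposited log2(CPM + 1). The ribosomal RNA precursor Rn45s made up 22.4% ± 2.21 of WT reads and 9.89% ± 1.24 of AMPK KO reads (SD, n = 3 each). Prkaa1, the targeted gene, had log2 values of 4.64, 5.24 and 4.86 in WT and 4.08, 4.72 and 4.67 in AMPK KO, a difference of -0.43 (standard error 0.25; limma, adjusted p = 0.357). These groups overlapped, and since the deleted exons and the place of the reads are not given in the sources used here, the level neither checks nor contradicts the labels. Xist was 6.13 higher on the log2 scale and the Y-linked Ddx3y 1.36 lower in AMPK KO (limma, adjusted p = 8.48e-09 and 8.63e-05), so the groups also differed in sex-linked transcripts. On the log2 scale, Xist had means of 1.66 in WT and 7.79 in AMPK KO, and Ddx3y had 8.48 and 7.13, so WT held the Y-linked transcript with little Xist and AMPK KO held both, whereas the methods text states female mice unless otherwise specified. Xist ran from 0.93 to 2.16 in the WT samples and from 7.55 to 7.92 in the AMPK KO samples, so it divides them as genotype does. The part of sex in the homing genes was not tested, and with these samples it cannot be told apart from that of genotype. Where the labels do not say that samples came from separate mice, p-values measure only the spread between these samples.

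Over all genes, 637 of 11279 (5.65%) passed an adjusted p of 0.05 with limma, with 287 higher (2.54%) and 350 lower (3.1%) in AMPK KO. The count fell to 127, 140 and 172 when WT sample 1, WT sample 3 or AMPK KO sample 1 was left out, and it was 1246 when AMPK KO sample 2 was left out. The split depends on the scaling: 45.1% of the called genes were higher with the deposited values, 32.5% after scaling to reads outside Rn45s, 71.4% with limma voom on recovered reads and 94.5% after scaling to T cell markers. Among the 9 homing genes, 1 passed, Ccr9, and nothing is read from this count because the same contrast chose them. The WT and AMPK KO samples did not overlap for 5 of the 9 genes, against 25.6% of all genes tested. Of these 5, Ccr9, S1pr1 and Itga4 were lower and Klf2 and Itgb1 were higher in AMPK KO. The median log2 difference was -0.16 over the 9 genes and 0.02 over all genes tested.

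**Figure D1:**
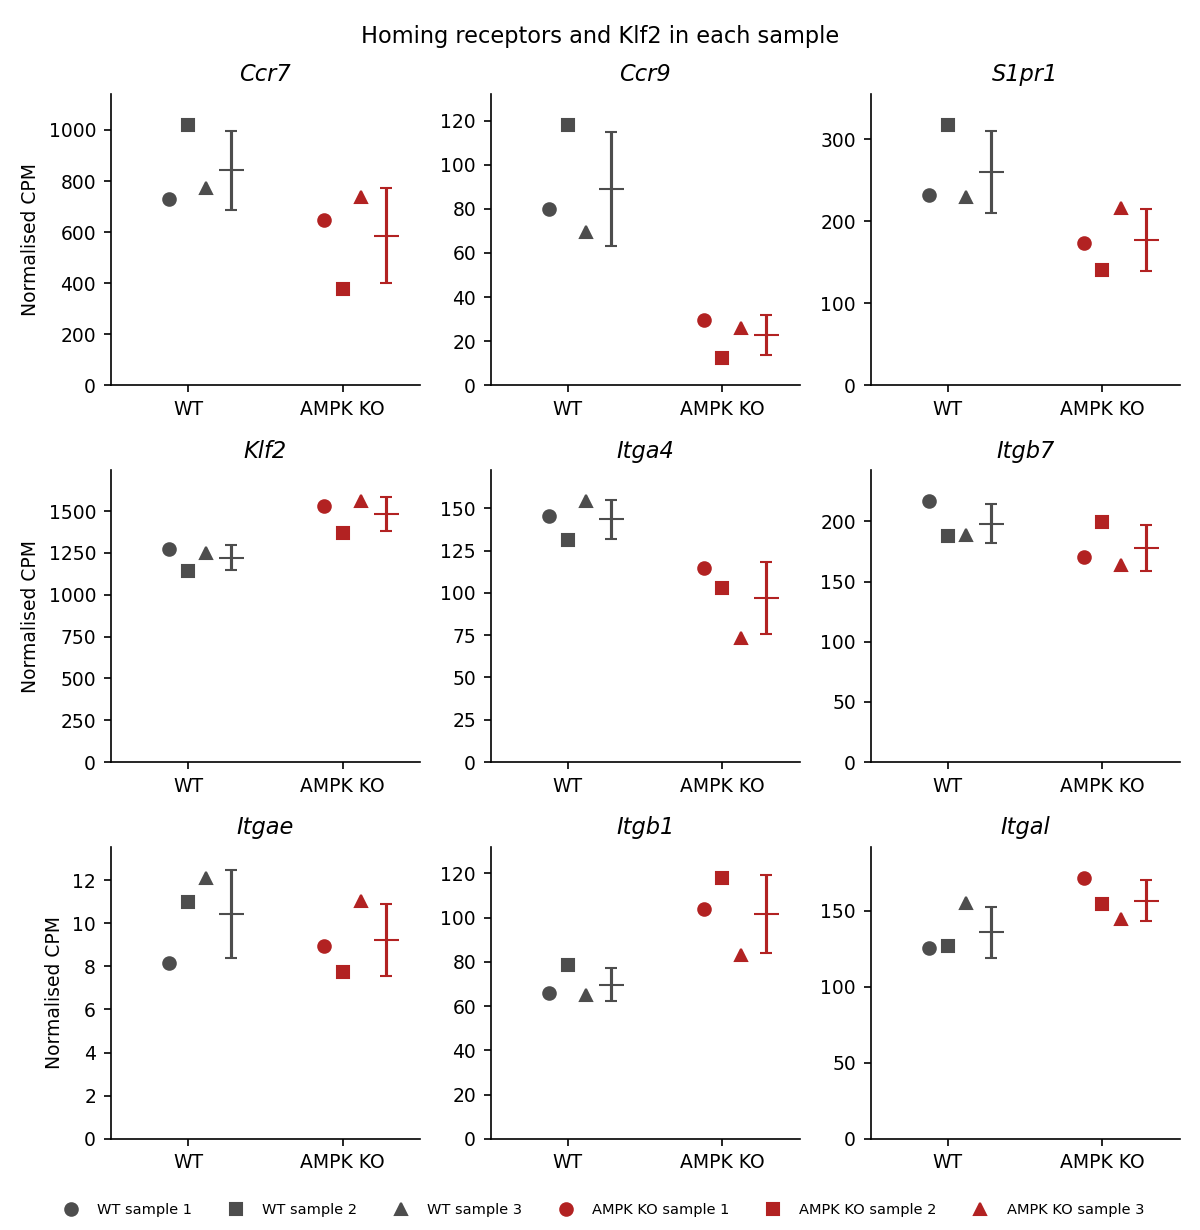
Normalised CPM (linear axes from 0) of the 9 homing genes in each of 3 WT (grey) and 3 AMPK KO (red) samples, with the mean ± SD beside the points and 1 symbol for each sample number. Ccr9 stands at 69.3 to 118 in WT and at 12.6 to 29.8 in AMPK KO, and S1pr1, Itga4, Klf2 and Itgb1 also show no overlap between the groups.

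Ccr9 had the largest difference of the 9. Its level was 79.7, 118 and 69.3 CPM in WT and 29.8, 12.6 and 26.0 CPM in AMPK KO. These values rest on 135 to 1181 reads per library. Every AMPK KO sample lay below every WT sample, and the AMPK KO mean of 22.8 ± 9.04 was 25.6% of the WT mean of 89.0 ± 25.7 (SD, n = 3). On the log2 scale the difference was -1.97 (standard error 0.29), a 3.91-fold lower level. Ordered from the most lowered, Ccr9 had rank 8 among the 11279 genes tested. Among the 6143 tested genes with a mean log2 value of at least 4, 1 gene alone had a larger decrease. These ranks are a description, because Ccr9 was chosen for its low level in this contrast. Leaving out single samples gave differences of Ccr9 from -2.20 to -1.61, the latter without AMPK KO sample 2.

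Ccr9 lies on chr9:123678439-123784330, plus strand (GENCODE vM21, GRCm38). Its annotated span is crossed by genes of the opposite strand, of which Lztfl1 held the most reads, 64 to 207 per library, with a log2 difference of 0.37 (limma, adjusted p = 0.574). Whether counting used the strand is not given in the sources used here. The direction of Lztfl1 was opposite to that of Ccr9.

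Ccr7, the receptor for lymph node entry (chr11:99144196-99155077, minus strand), had one of the highest levels of the 9 genes. It stood at 731, 1020 and 773 CPM in WT and at 648, 376 and 736 in AMPK KO. The groups overlapped narrowly, since AMPK KO sample 3 lay just above WT sample 1, while AMPK KO sample 2 lay far below all others. The log2 difference was -0.56 (standard error 0.21), and it was -0.27 when AMPK KO sample 2 was left out and -0.75 when sample 3 was left out.

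S1pr1, the exit receptor (chr3:115710433-115715072, minus strand), stood at 232, 318 and 230 CPM in WT and at 173, 141 and 216 in AMPK KO. The groups did not overlap, but the gap between the lowest WT and the highest AMPK KO sample was small beside the spread within the groups. The log2 difference was -0.56 (standard error 0.18), that is, an AMPK KO mean at 68.0% of WT. It was -0.41 without AMPK KO sample 2.

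The 3 chemoattractant receptors shared an order of samples within the groups. For Ccr7, Ccr9 and S1pr1, WT sample 2 was the highest WT sample and AMPK KO sample 2 the lowest AMPK KO sample, an order that was noticed after the values were seen. It held for 3 of the 9 homing genes and for 19.9% of all genes tested, so it is common in these libraries. The spread of Ccr7 and Ccr9 within the groups (pooled SD 0.41 and 0.53 on the log2 scale) exceeded that of 95.1% and 96.4% of the tested genes within 0.5 log2 of their mean level. In contrast, the spread of Klf2 (0.09) exceeded that of only 6.56% of such genes.

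**Figure D2:**
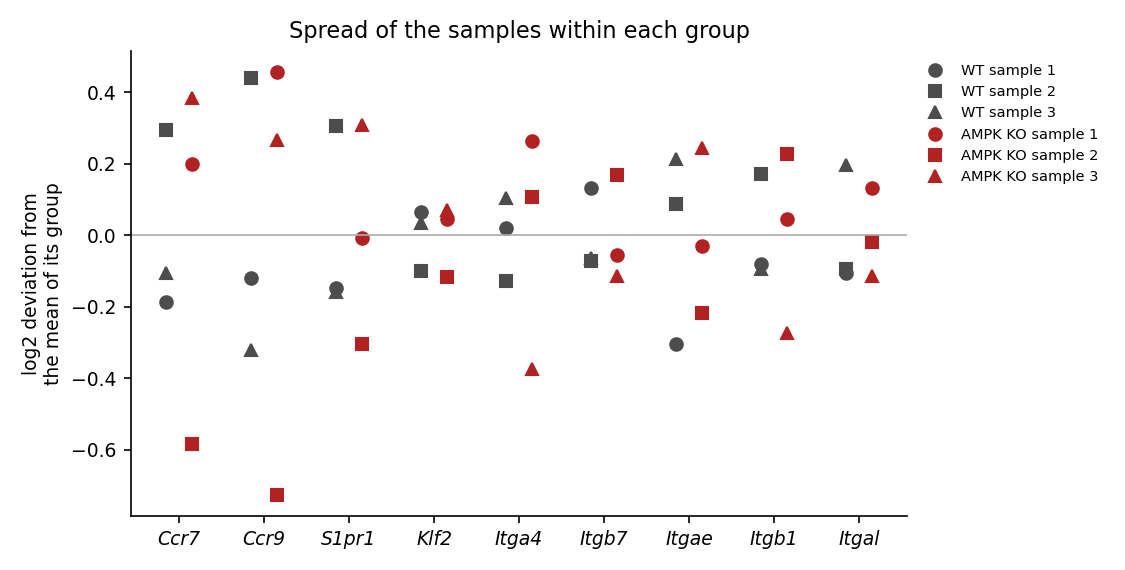
Deviation of each sample from the mean of its group (log2 scale) for the 9 homing genes, WT in grey and AMPK KO in red, with 1 symbol for each sample number. AMPK KO sample 2 (red square) lies 0.58 below its group mean for Ccr7, 0.72 below for Ccr9 and 0.30 below for S1pr1, whereas all samples of Klf2 lie within 0.12 of theirs.

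Klf2, the regulator (chr8:72319033-72321656, plus strand), was the most abundant of the 9 and had a higher mean in AMPK KO. Its level was 1276, 1139 and 1251 CPM in WT and 1529, 1367 and 1558 in AMPK KO. All AMPK KO samples lay above all WT samples. The AMPK KO mean was 121% of the WT mean, a log2 difference of 0.28 (standard error 0.14) that ranged from 0.23 to 0.34 with each sample left out. The transcript of the regulator and that of its known target S1pr1 thus had differences of opposite sign.

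Itga4, the α4 chain, stood at 145, 131 and 154 CPM in WT and at 115, 103 and 73.2 in AMPK KO. The groups did not overlap, with AMPK KO sample 3 the lowest. The log2 difference was -0.58 (standard error 0.18), and it was -0.40 without AMPK KO sample 3. Cerkl, a gene of the opposite strand that overlaps Itga4 on chr2:79255426-79333123, held 9 to 49 reads per library, against 871 to 1362 for Itga4.

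Itgb7, the β7 chain that pairs with α4 and αE (chr15:102215995-102231944, minus strand), showed little difference. It stood at 217, 188 and 189 CPM in WT and at 170, 199 and 164 in AMPK KO. AMPK KO sample 2 lay above WT samples 2 and 3, so the groups overlapped, and the log2 difference was -0.16 (standard error 0.14). Itgae, the αE chain (chr11:73090583-73147446, plus strand), was the least abundant of the 9, at 8.14, 11.0 and 12.1 CPM in WT and 8.95, 7.73 and 11.0 in AMPK KO. Its groups overlapped, the log2 difference was -0.15 (standard error 0.31), and with 75 to 131 reads per library its precision was the lowest of the 9.

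Itgb1, the β1 chain (chr8:128685654-128733200, plus strand), had a higher mean in AMPK KO. It stood at 65.8, 78.4 and 65.1 CPM in WT and at 104, 118 and 82.9 in AMPK KO. The groups did not overlap, and the AMPK KO mean was 146% of the WT mean, a log2 difference of 0.53 (standard error 0.17). Itgal, the αL chain of LFA-1 (chr7:127296260-127335138, plus strand), stood at 126, 127 and 155 CPM in WT and at 172, 154 and 145 in AMPK KO. Its groups overlapped, with a log2 difference of 0.21 (standard error 0.15).

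**Figure D3:**
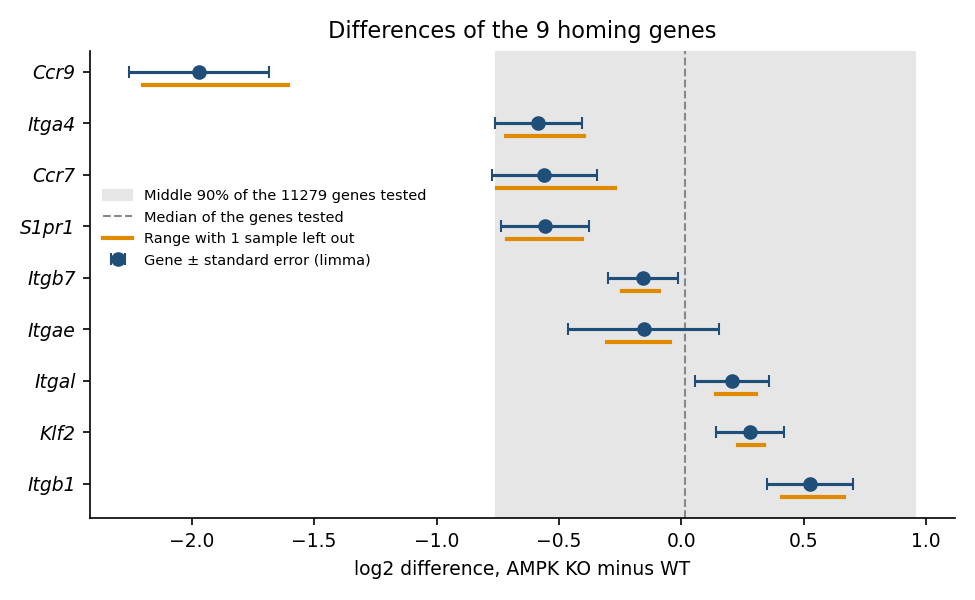
Log2 difference of each homing gene, AMPK KO minus WT, with its standard error from limma (blue) and its range with 1 of the 6 samples left out (orange), beside the median and the middle 90% of the 11279 genes tested (grey). Ccr9 at -1.97 lies outside the grey band of -0.76 to 0.96, and the other 8 genes lie inside it.

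Because an α4 chain can pair with β7 or with β1, the ratio of the chains was also taken within each sample, where the scaling of a library has almost no effect. The log2 ratio of Itgb7 to Itgb1 was 1.70, 1.25 and 1.52 in WT and 0.71, 0.75 and 0.97 in AMPK KO. The groups did not overlap, and the ratio was 1.60-fold lower in AMPK KO. The log2 ratio of Itga4 to Itgb1 was 1.13, 0.73 and 1.23 in WT and 0.14, -0.20 and -0.18 in AMPK KO, a 2.16-fold lower ratio with no overlap. Itga4 to Itgb7 overlapped between the groups, with means of -0.46 ± 0.15 in WT and -0.89 ± 0.29 in AMPK KO (SD, n = 3). The ratio of Itgal to its partner Itgb2 overlapped as well. Itgae to Itgb7 had means of -4.14 in WT and -4.13 in AMPK KO. These ratios are of transcripts and use the same contrast as the choice of the genes, so they too are a description.

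**Figure D4:**
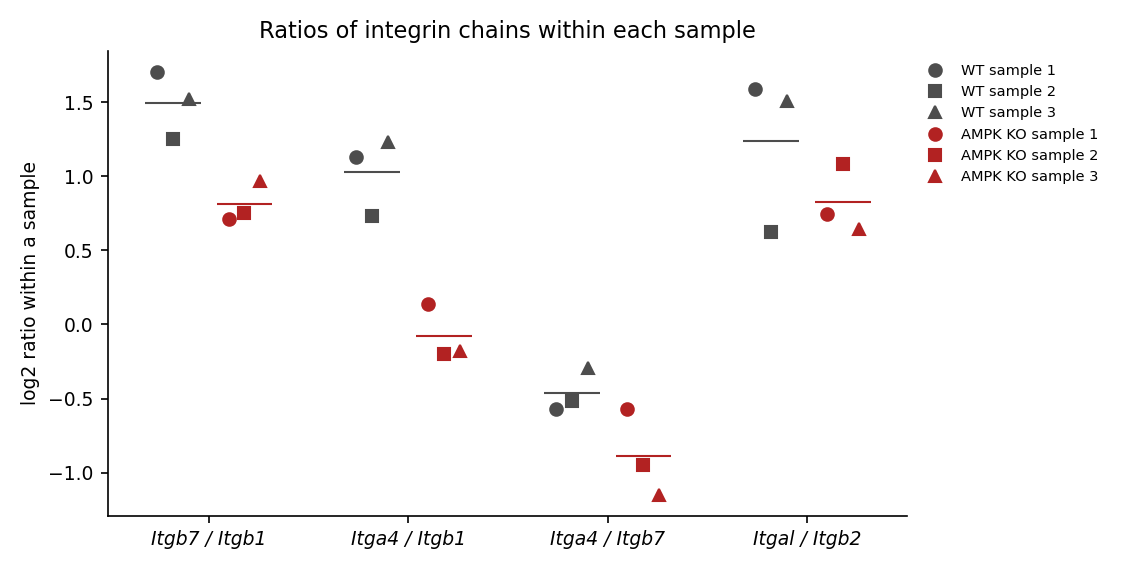
Log2 ratio of the transcripts of pairs of integrin chains within each sample, WT in grey and AMPK KO in red, with lines at the group means. The groups are apart for Itgb7 to Itgb1 (means 1.49 and 0.81) and for Itga4 to Itgb1 (means 1.03 and -0.08), and overlap for Itga4 to Itgb7 and for Itgal to Itgb2.

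Levels were compared between genes per kilobase of the longest coding transcript in GENCODE vM21. In WT the order was Klf2 (662 CPM per kilobase), Ccr7 (425), S1pr1 (85.3), Itgb7 (73.7), Itgal (26.1), Itgb1 (18.3), Ccr9 (17.1), Itga4 (14.7) and Itgae (2.71). The ranges of neighbours overlapped for S1pr1 and Itgb7, for Itgb1 and Ccr9, and for Ccr9 and Itga4. In AMPK KO, Itgb7 (66.2) stood above S1pr1 (58.1) with overlapping ranges, and Ccr9 (4.38) came after Itga4 (9.91), near Itgae (2.40), whose range it overlapped. The libraries are described as made with a Lexogen Quant-Seq kit, which reads 3′ ends, but the catalogue number given may be that of a kit for whole transcripts. If 3′ ends alone were read, length should not be divided out and the order per kilobase has no meaning. By CPM, the order in WT places Itga4 between Itgb7 and Itgal, with a mean of 143 ± 11.6, against 136 ± 16.8 for Itgal (SD, n = 3). The ranges of Itga4 and Itgal overlapped, as did those of Ccr9 and Itgb1.

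Genes most like Ccr9 and Klf2 over the 6 samples were sought among 6142 other genes with a mean log2 value of at least 4, by Pearson's r of the log2 values. For Ccr9 these were Pank3 (r = 0.992), Smarca5-ps (0.992), Atrx (0.992), Cep97 (0.989) and Smc3 (0.988), all with lower means in AMPK KO but with log2 differences of only -0.53 to -0.82. For Klf2 they were Baz1a (0.989), Sfn (0.982), Polr3k (0.981), Gm6402 (0.969) and Man1a (0.965). With 6 samples in 2 groups many genes reach such values, and 84 genes had an r of at least 0.95 with Ccr9.

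The surrounding pathway was described with 8 lists of other homing genes, of which 99 were listed and 82 tested. With limma over all genes, 13 of the 82 passed (15.9%, against 5.65% of all genes tested), 7 lower and 6 higher in AMPK KO. That split depends on the scaling, since 21 passed when values were scaled to T cell markers as described further on, 17 higher and 4 lower. The median log2 difference of the 82 was 0.01. The lists were written with earlier results of these data known. Klf3, Gpr183, Smad7 and Vcam1 passed under all 16 alternative settings, and the other 9 did not, while all 13 had the same sign in every setting. Leaving out WT sample 1 left these 4 of the 82 past the threshold, beside 127 of all 11279 genes. Leaving out WT sample 3 left 6 beside 140, with Itga6 and Cd44 added to the 4, and leaving out AMPK KO sample 1 left 7 beside 172, with Itga6, Itgb3 and Cd44 added. Leaving out AMPK KO sample 2 gave 20 beside 1246.

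Among 10 genes of the KLF2 and FOXO1 pathway, 2 fell and 1 rose, with a median log2 difference of -0.39. Klf3, a repressor of the same family, fell from 9.08, 8.59 and 9.08 in WT to 7.71, 7.52 and 7.88 in AMPK KO on the log2 scale, a difference of -1.21 (standard error 0.16; limma, adjusted p = 0.000719). Il7r, the receptor for the survival signal IL-7 and a FOXO1 target, fell from 9.37 ± 0.14 to 8.70 ± 0.05 (SD, n = 3; limma, adjusted p = 0.00976). The groups did not overlap for either gene. Mapk7, the kinase ERK5 upstream of KLF2, rose by 1.15 (limma, adjusted p = 0.0401), with 51 to 227 reads per library. Klf3 alone passed when WT sample 1, WT sample 3 or AMPK KO sample 1 was left out, and Mapk7 passed in 8 of the 16 alternatives. With the scaling to T cell markers, Il7r did not pass and the list's median was -0.02. Foxo1 itself had a log2 difference of -0.17 (limma, adjusted p = 0.502).

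Among the 10 other chemoattractant receptors tested, 1 fell and 1 rose. Cxcr6 differed by 1.01 without passing (limma, adjusted p = 0.061), but it passed as higher in 4 of the 16 alternatives, limma voom among them. Scaled to T cell markers, Cxcr3, Cxcr5 and Cxcr6 passed as higher and Gpr183 as lower. Gpr183 (EBI2), which positions cells along oxysterols at the edge of the follicle, fell from 6.95, 7.10 and 6.74 to 5.52, 5.16 and 5.48 (log2 difference -1.54, standard error 0.17; limma, adjusted p = 0.000207). Ubac2, which overlaps Gpr183 on the opposite strand, held 715 to 843 reads per library, against 374 to 1357 for Gpr183. Its log2 difference was -0.26 (limma, adjusted p = 0.382). Cxcr5, the receptor for entry into follicles, rose from 4.83, 4.39 and 4.92 to 5.48, 5.69 and 5.50 (0.84, standard error 0.21; limma, adjusted p = 0.0314). The call of Cxcr5 was lost when any sample other than AMPK KO sample 2 was left out. Bcl9l, which overlaps Cxcr5 on the opposite strand with 553 to 1126 reads, had a difference of -0.13. Cxcr4, the receptor of CXCL12, had overlapping groups and a difference of -0.26 (limma, adjusted p = 0.411). None of the 9 genes tested of the S1P pathway passed (2 had an unadjusted p under 0.05), and with limma voom none was called either. S1pr4 passed after scaling to reads outside Rn45s, S1pr4 and Sgpp1 without AMPK KO sample 2, and Sgpl1 after scaling to T cell markers. Cd69, whose product removes S1PR1 from the surface, had overlapping groups and a log2 difference of -0.18 (limma, adjusted p = 0.633).

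Among 11 other integrin chains tested, 2 fell and 1 rose, but none passed when WT sample 1 was left out and Itga6 alone did when WT sample 3 was. Of the 11, 9 had higher means in AMPK KO, with a median log2 difference of 0.61, and scaled to T cell markers 4 passed as higher and 1, Itga6, as lower. Itga6, the α6 chain of laminin receptors, fell by 1.08 on the log2 scale and Itgb3 by 1.01 (limma, adjusted p = 0.00395 and 0.0132). Itgad rose by 1.93 (limma, adjusted p = 0.0294), but Cox6a2, which lies within it on the opposite strand, rose by 1.81 over the same samples, so the reads of these genes may not be separable and the call of Itgad is uncertain. Itgb2, the partner of Itgal, had a difference of 0.62 with overlapping groups (limma, adjusted p = 0.126). Of 14 genes of integrin activation, Rassf5 alone passed. It encodes RAPL, an effector of RAP1 on LFA-1, and fell from 7.67, 7.47 and 7.62 to 7.03, 6.94 and 6.92 (limma, adjusted p = 0.0192). That call was lost with limma voom, with a block on the replicate number and when WT sample 1, WT sample 3 or AMPK KO sample 1 was left out. When AMPK KO sample 2 was left out, 4 genes of the list passed. Scaled to T cell markers, Rassf5 did not pass, Rap1a and Rap1b passed as higher, and the list's median was 0.34.

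Among 8 genes tested of the selectin ligands and the enzymes that modify them, 1 rose. This was Cd44, the hyaluronan receptor that is raised on activated and memory T cells, which went from 6.05, 6.66 and 5.90 to 7.42, 7.15 and 7.55 (log2 difference 1.17; limma, adjusted p = 0.00364), a call that was lost when WT sample 1 was left out. Selplg, the P-selectin ligand PSGL-1, differed by 0.05 (limma, adjusted p = 0.894). In the retinoic acid and TGF-beta list, which holds the known inducers of gut homing and of Itgae, 1 of 14 genes passed. This was Smad7, an inhibitor of TGF-beta signalling, which fell by 1.30 (limma, adjusted p = 0.00188), whereas Rara differed by -0.02 (limma, adjusted p = 0.975).

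Of 6 ligands tested, Vcam1, bound by α4β1, rose by 1.24 and Icam1, bound by LFA-1, by 0.95 (limma, adjusted p = 0.000794 and 0.0198). Icam1 did not pass when WT sample 1, WT sample 3, AMPK KO sample 1 or AMPK KO sample 3 was left out. Madcam1, the ligand of α4β7, was listed at 0 in all 6 samples.

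**Figure D5:**
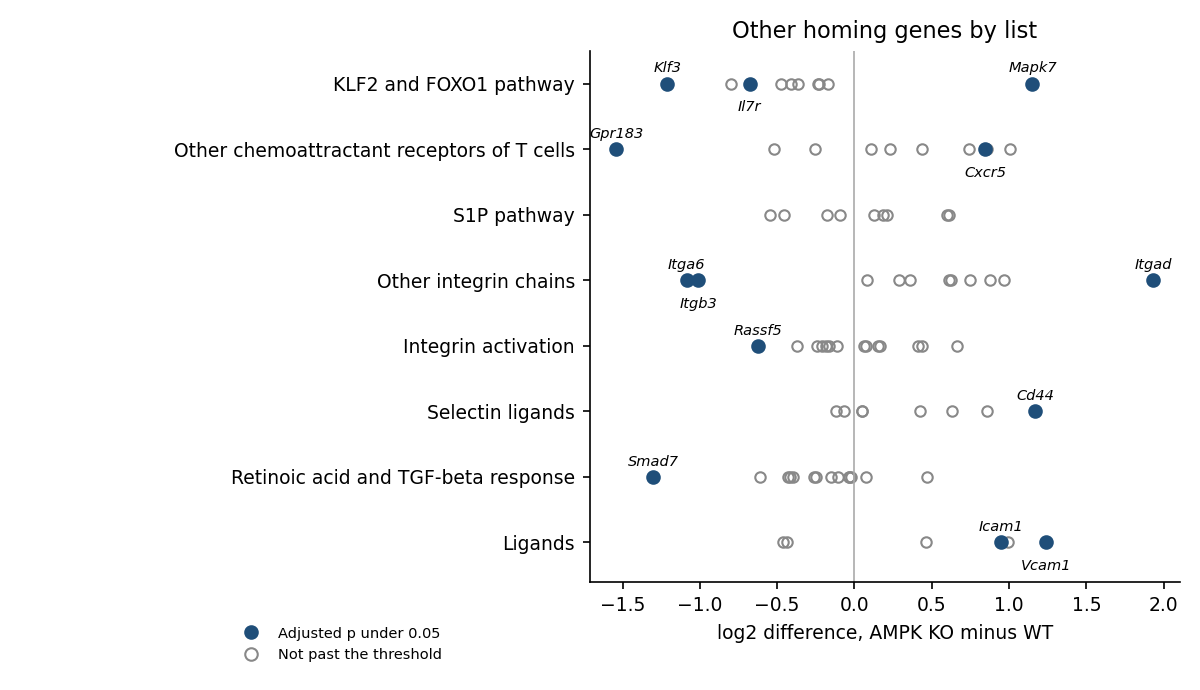
Log2 difference, AMPK KO minus WT, of the other homing genes tested, by list, with genes past an adjusted p of 0.05 filled and named. The 13 called genes run from Gpr183 at -1.54 to Itgad at 1.93.

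Markers of several cell types differed between the groups in these bulk samples, in which fewer cells of a type and less RNA per cell cannot be told apart. Of 11 T cell markers tested, 10 had lower means in AMPK KO and 3 passed (Cd3e, Cd3g and Cd28; with limma voom Cd3g alone), with summed levels of 3012 to 3281 CPM in WT and 2277 to 2836 in AMPK KO. The count was 0 when WT sample 1 was left out, 1 (Cd3g) when WT sample 3, AMPK KO sample 1 or AMPK KO sample 3 was, and 5 when AMPK KO sample 2 was. Cd4 itself had means of 6.69 and 6.33 on the log2 scale (limma, adjusted p = 0.224). Scaling to the T cell markers, an alternative chosen after seeing the data, moved the median of all genes to 0.38, and the difference of Ccr9 became -1.60, that of Ccr7 -0.20, that of S1pr1 -0.19 and that of Klf2 0.64. Under that scaling Itgb7 and Itgae turned to 0.21 each. This scaling shifts every gene by the same amount.

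All 11 macrophage and monocyte markers had higher means in AMPK KO and 6 passed, with a median log2 difference of 1.14. Their summed level was 351 to 392 CPM in WT and 655 to 1223 in AMPK KO. Vcam1, Icam1, Itgad, Itgb2, Itgb1 and Cd44 are also known from such cells, and the part of these cells in their differences was not tested. The isolation of CD4 T cells, with magnetic beads or a cell sorter, should remove them. Transcripts of Cd8a and Cd8b1 were present, and the CD8 T cell markers summed to 266 to 342 in WT and 382 to 447 in AMPK KO, with Gzmk listed at 0 in all samples. None of the 3 tested passed (all 3 had an unadjusted p under 0.05), while limma voom called Eomes, which also passed when WT sample 2 or AMPK KO sample 2 was left out, and all 3 passed when scaled to T cell markers. CD8 T cells also carry Itgae and Ccr9, and their part was not tested, although the isolation should remove them as well.

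Plasmacytoid dendritic cells, which that isolation should also remove, are another known source of Ccr9. Their 10 markers summed to 360 to 389 CPM in WT and 379 to 453 in AMPK KO, and 1 passed, Cox6a2, whose reads may not be separable from those of Itgad as stated above. That call was lost with limma voom and when WT sample 1, WT sample 3, AMPK KO sample 1 or AMPK KO sample 3 was left out. Of the 10, 7 had higher and 3 had lower means in AMPK KO, with a median log2 difference of 0.11. Siglech, a defining marker, was among the lower ones, with log2 means of 3.86 in WT and 3.54 in AMPK KO (limma, adjusted p = 0.564). Of the 6 plasma cell markers, 1 passed, Jchain, with a log2 difference of 2.60 (limma, adjusted p = 5.77e-08). In this list 5 of the 6 had higher means, with a median log2 difference of 0.79. Their summed level was 197 to 247 CPM in WT and 511 to 544 in AMPK KO. Mzb1 also passed with limma voom, and Mzb1 and Derl3 passed when scaled to T cell markers. The 6 regulatory T cell markers summed to 462 to 485 in WT and 484 to 578 in AMPK KO, and none passed (2 had an unadjusted p under 0.05, and limma voom called none), although Ctla4 and Nrp1 passed without AMPK KO sample 2 and when scaled to T cell markers. Of the tested markers of B cells, conventional dendritic cells and innate lymphoid cells none passed (1, 1 and 2 had an unadjusted p under 0.05, and limma voom called none), although Flt3 of the conventional dendritic cell list passed when AMPK KO sample 2 was left out. Scaled to T cell markers, Blk of the B cell list, Batf3 and Itgax of the conventional dendritic cell list and Id2 and Il1rl1 of the innate lymphoid cell list passed, all as higher. One gene each passed of the neutrophil list (Ltf, lower) and the NK cell list (Klrk1, higher), and both calls were lost when WT sample 1, WT sample 3 or AMPK KO sample 1 was left out, that of Ltf also when WT sample 2 was, with limma voom and when scaled to T cell markers. The activation genes were mixed, with Egr1 falling by 0.76 and Ifng and Tnfrsf9 rising by 1.70 and 0.72 (limma, adjusted p = 0.00592, 0.0231 and 0.0245). No activation gene passed when WT sample 1 was left out, Egr1 alone passed when WT sample 3 or AMPK KO sample 1 was, and 5 passed when AMPK KO sample 2 was. The part of these differences in those of the homing genes was not tested.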

How the data were processed

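Transcripts were measured in 3 WT and 3 AMPK KO samples, grouped by their labels. The authors deposited log2 values per gene symbol, log2(value + 1) of CPM after TMM normalization. The submitters' processing notes name Bowtie2, bedtools and mm10. The annotation and strand setting are not given in the sources used here. Values up to 100 reads lay within 0.1 of whole reads in 100% of cases. CPM values were obtained by undoing the log2.

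Genes with a mean of at least 1 (11279) were fitted with limma 3.58.1 in R 4.3.3 (lmFit, eBayes with trend, genotype only), two-sided, with Benjamini-Hochberg adjustment and a threshold of 0.05. The fit was tested on simulated data. Python 3.11.15 made the tables and plots. A fold on the log2(value + 1) scale understates changes of low genes. The members and lists were chosen with earlier results of these data known. Named were all 9 members, every listed homing gene past the threshold, Cd69, Itgb2, Foxo1, Cxcr4, Selplg, Rara and Prkaa1, the 5 genes most like Ccr9 and Klf2, and overlapping genes. One further gene is not reported here. Marker genes, S1pr4, Sgpp1, Sgpl1, Cxcr3, Cxcr6, Rap1a, Rap1b and Madcam1 were named after their values were seen. 16 alternatives were run, 1 of them added after seeing the data.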

Additional observations from a re-analysis of the deposited data

How the results depend on the processing

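The log2 difference of Ccr9 was -2.20 to -1.60 over the 16 alternatives, which refit the 6 samples on which it was chosen and are no independent support. Ccr7, S1pr1, Klf2, Itga4, Itgb1 and Itgal had 1 sign each over all 16. Itgb7 and Itgae turned from -0.16 and -0.15 to 0.21 each when scaled to T cell markers. The count of homing genes past the threshold was 1, beside 637 of all 11279 genes. It was 2 after scaling to reads outside Rn45s (Itga4 added), beside 722 of all genes. It was 2 with limma voom on recovered reads (Itgb1 added), beside 531, and 4 when scaled to T cell markers (Klf2, Itgb1 and Itgal added), beside 1494. Without 1 sample the count of homing genes ranged from 1 to 3. Itga4 was added without AMPK KO replicate 2, beside 1246 of all genes. Ccr7 and S1pr1 were added without AMPK KO replicate 3, beside 464 of all genes. Nothing is read from these counts, because the same contrast chose the 9 genes. Limma voom moved the median of all genes to 0.16. The count over all genes, 637, became 308 with no filter and 1494 when scaled to T cell markers, and ranged from 127 (without WT replicate 1) to 1246 (without AMPK KO replicate 2). It was also moved by over 1.5 times without WT replicate 3 (140) and without AMPK KO replicate 1 (172). Of the other homing genes, 13 passed, 21 when scaled to T cell markers, and 4 (without WT replicate 1) to 20 (without AMPK KO replicate 2) with 1 sample left out. Without WT replicate 3, 6 passed, and without AMPK KO replicate 1, 7. With the replicate block, 102 genes passed over all, 1 of the 9 homing genes (Ccr9) and 5 of the other homing genes (Gpr183, Smad7, Itga6, Vcam1 and Klf3), and 0 of the T cell markers and 0 of the activation genes. The same-numbered samples deviated in opposite directions (correlations of -0.22, -0.53 and -0.31 over 6143 genes), and no sample correlated best with its own number. With 3 samples per group, the deviations from a group mean depend on each other. These correlations therefore cannot decide whether the numbers pair the samples. The cause of these changes was not tested. Depth limits Itgae most, at 75 to 131 reads per library, and reads are not independent molecules.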
